A study of Homo sapiens with 16 samples.

Results

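The genes described are CPS1, TUSC3, PRKAA2, SLC39A8, GLRX, SLC18B1 and ARSJ, 7 of the 18377 genes measured. They were chosen by their log2 signal in these tumours, as genes whose mean was lower after depletion of the phosphatase SHP2 than in either expression state of the controls. BT474, an established human breast cancer cell line with amplified HER2, carried a lentiviral vector that makes an artificial microRNA when doxycycline is given. The microRNA was a control sequence (CTRL miR, 6 tumours) or 1 of 2 hairpins against SHP2 (SHP2 miR1, 7 tumours, and SHP2 miR2, 3 tumours). The cells were grown orthotopically in immunodeficient mice, and doxycycline at 2 g per L of drinking water was started once tumours had formed. Tumours were taken at day 30 and 100 ng of total RNA from each was read on a human whole-transcript array.

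All 16 tumours carried the vector and received doxycycline, and no group without either was analysed here. The labels number the tumours but name no animal or clone, so p-values measure the spread between these tumours. Values are log2 signal, on which a difference of -1 is a signal 2 times lower. A level belongs to its own probe set, so levels of different genes are not set against each other. In a bulk tumour, fewer cells of a type and less RNA per cell cannot be told apart.

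The genes act in separate processes. CPS1 makes carbamoyl phosphate from ammonia in mitochondria, the entry step of the urea cycle, and is best known from liver and intestine. TUSC3 is a subunit of the oligosaccharyltransferase, which attaches sugar chains to new proteins in the endoplasmic reticulum, and PRKAA2 is a catalytic subunit of the energy-sensing kinase AMPK. SLC39A8 carries zinc and manganese into the cell, and GLRX is a glutaredoxin that removes glutathione from oxidised protein thiols. SLC18B1 loads polyamines into vesicles, and ARSJ belongs to the arylsulfatase family. SHP2 is the tyrosine phosphatase made from PTPN11, and passes signals from receptors such as HER2 on to RAS and ERK.

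PTPN11 signal was 8.23 to 8.61 in CTRL miR tumours, 6.59 to 7.18 with SHP2 miR1 and 6.34 to 6.53 with SHP2 miR2, so no group overlapped another. The control tumours fell into a state with high IRS4, 7.14 to 8.29 in tumours 1, 3, 4 and 6 (the high-IRS4 controls), and a state with low IRS4, 3.16 and 3.77 in tumours 2 and 5 (the low-IRS4 controls). IRS4 was 2.97 to 3.91 in the knockdown tumours, the level of control tumours 2 and 5. A list of genes abundant in a kidney-derived line used to make vectors, IRS4 among them and named after earlier results of these data, moved with this split. Its 7 measured genes averaged 7.21 to 7.67 in the high-IRS4 controls, 4.01 and 4.09 in the low-IRS4 controls, and 3.75 to 4.19 after knockdown, and their part in the results was not tested. A mean of 5 noncoding RNAs also split the arrays into set A (8.19 to 8.39) and set B (6.81 to 7.21). Control tumours 1 to 3 and SHP2 miR1 tumours 1 to 4 made up set A. The remaining 9 tumours, including every SHP2 miR2 tumour, made up set B. The mean of 10 of 10 luminal breast markers was 9.27 to 9.74 in the high-IRS4 controls and 9.76 and 9.90 in the low-IRS4 controls. It was 9.75 to 10.02 with SHP2 miR1 and 9.72 to 9.99 with SHP2 miR2, and its part in the results was not tested. Among them ERBB2 was 10.59 to 11.32, while ESR1 was the lowest at 5.33 to 7.30. The mean of 10 of 11 hepatocyte markers was 3.87 to 4.31 and that of 8 of 9 enterocyte markers 4.24 to 4.67, below the array medians of 5.21 to 5.41.

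CPS1, TUSC3 and PRKAA2 shared a graded order: highest in control tumours 1, 3, 4 and 6, lower in control tumours 2 and 5, and lowest with either hairpin. Because the choice of genes used these values, differences from the controls are given as a description with no test. CPS1 signal was 6.29, 6.45, 6.39 and 6.65 in the high-IRS4 controls (tumours 1, 3, 4 and 6), and 4.81 and 4.90 in the low-IRS4 controls (tumours 2 and 5). It was 3.77 to 4.35 (median 3.95) in the 7 SHP2 miR1 tumours, and 4.12, 3.85 and 4.18 in the SHP2 miR2 tumours. Every knockdown tumour was below every control tumour. The SHP2 miR1 mean of 4.0 ± 0.24 (SD, n = 7) differed by -0.85 from the mean of control tumours 2 and 5 and by -2.44 from that of the high-IRS4 controls. With SHP2 miR2 the mean was 4.05 ± 0.18 (SD, n = 3), and the same differences were -0.80 and -2.39. The knockdown values lay between the 24.6 and 34.2 percentile of all probe sets on their arrays. The table has no detection call, so it is not known whether CPS1 was above background there.

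TUSC3 signal was 7.05, 7.05, 6.98 and 7.07 in the high-IRS4 controls (tumours 1, 3, 4 and 6), and 6.46 and 6.14 in the low-IRS4 controls (tumours 2 and 5). The SHP2 miR1 tumours ranged from 5.37 to 5.72 (median 5.58), and the SHP2 miR2 tumours read 5.80, 5.87 and 5.43. Again the knockdown tumours did not overlap the controls: the highest of them, SHP2 miR2 tumour 2, was below control tumour 5. The differences from the mean of control tumours 2 and 5 were -0.75 (SHP2 miR1) and -0.60 (SHP2 miR2), and those from the high-IRS4 controls were -1.49 and -1.34. Averaged over the hairpins, the difference from control tumours 2 and 5 ran from -0.84 to -0.52 when either of those tumours was left out.

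PRKAA2 signal was 7.90, 7.90, 7.95 and 8.23 in the high-IRS4 controls (tumours 1, 3, 4 and 6), and 7.31 and 7.33 in the low-IRS4 controls (tumours 2 and 5). It was 6.14 to 6.75 (median 6.52) with SHP2 miR1, and 6.66, 6.85 and 6.36 with SHP2 miR2. No knockdown tumour reached a control tumour. Its mean differed from that of control tumours 2 and 5 by -0.80 (SHP2 miR1) and -0.69 (SHP2 miR2), and from that of the high-IRS4 controls by -1.48 and -1.37.

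SLC39A8 was not divided by IRS4 state among the controls. Its control tumours of array set A (mean 7.32) were all below those of set B (mean 7.58). Its signal was 7.43, 7.22, 7.56 and 7.67 in the high-IRS4 controls (tumours 1, 3, 4 and 6), and 7.30 and 7.51 in the low-IRS4 controls (tumours 2 and 5), so the control states overlapped. It was 6.29 to 6.96 (median 6.78) with SHP2 miR1, and 5.84, 6.04 and 5.99 with SHP2 miR2. The 3 groups did not overlap: SHP2 miR2 was lowest, SHP2 miR1 intermediate and the controls highest. Against control tumours 2 and 5 the difference of means was -0.70 with SHP2 miR1 and -1.45 with SHP2 miR2.

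GLRX followed the same order of groups with more spread. Its signal was 5.67, 5.48, 5.38 and 5.73 in the high-IRS4 controls (tumours 1, 3, 4 and 6), and 5.42 and 4.97 in the low-IRS4 controls (tumours 2 and 5). The SHP2 miR1 tumours ranged from 4.41 to 5.05 (median 4.71), and the SHP2 miR2 tumours read 3.98, 4.26 and 3.83. With SHP2 miR1, 5 of 7 tumours were below every control tumour, and the other 2 lay above control tumour 5. All 3 SHP2 miR2 tumours were below every other tumour. Against control tumours 2 and 5 the differences were -0.48 with SHP2 miR1 and -1.17 with SHP2 miR2. Averaged over the hairpins, the difference ran from -1.04 to -0.60 when either of those control tumours was left out. The SHP2 miR2 values of GLRX stood between the 21.8 and 31.3 percentile of all probe sets, where the table does not tell signal from background.

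SLC18B1 was divided among the controls as CPS1 was. Its signal was 7.68, 7.73, 7.74 and 8.02 in the high-IRS4 controls (tumours 1, 3, 4 and 6), and 6.24 and 6.18 in the low-IRS4 controls (tumours 2 and 5). With SHP2 miR1 it was 5.78 to 6.31 (median 6.18), a range that holds both low control tumours, and 4 of 7 tumours were below them. With SHP2 miR2 it was 4.86, 4.86 and 5.0. The SHP2 miR1 mean differed from that of control tumours 2 and 5 by -0.12, less than the SD of 0.21 between its tumours, and the SHP2 miR2 mean by -1.30. Against the high-IRS4 controls the differences were -1.70 and -2.88.

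ARSJ was level across the controls and close to that level with SHP2 miR1. Its signal was 6.37, 6.30, 6.25 and 6.47 in the high-IRS4 controls (tumours 1, 3, 4 and 6), and 6.44 and 6.27 in the low-IRS4 controls (tumours 2 and 5). It was 5.97 to 6.33 (median 6.16) with SHP2 miR1, and 4.44, 4.37 and 4.56 with SHP2 miR2. Of the 7 SHP2 miR1 tumours, 5 were below every control and 2 lay among them. The SHP2 miR1 mean differed from that of control tumours 2 and 5 by -0.21, and the SHP2 miR2 mean by -1.90. A fall against either control state with both hairpins therefore describes CPS1, TUSC3, PRKAA2, SLC39A8 and, with overlap, GLRX. For ARSJ against either control state, and for SLC18B1 against control tumours 2 and 5, the average over hairpins came mostly from SHP2 miR2. Against the high-IRS4 controls SLC18B1 was lower with either hairpin.

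For 4 of the 7 genes every knockdown tumour was below every control tumour, an arrangement found for 0.239% of all genes, and the choice of genes favours it. The same 4 were the genes in which every SHP2 miR1 tumour was below every control tumour (0.555% of all genes) or below control tumours 2 and 5 (3.69%). All 3 SHP2 miR2 tumours were below every control tumour for 7 of 7 genes, against 11.2% of all genes, and 18% when control tumours 2 and 5 alone are the comparison. Control tumours 2 and 5 were both below control tumours 1, 3, 4 and 6 for CPS1, SLC18B1, TUSC3 and PRKAA2, an order that held for 19% of all genes. Their means differed by -1.59, -1.58, -0.74 and -0.68 in that sequence of genes. The same difference was -0.37 for GLRX, -0.064 for SLC39A8 and 0.0080 for ARSJ, with overlap. Control tumour 6 had the highest value of all 6 controls for each of the 7 genes. Each array set held 1 low-IRS4 control and 2 high-IRS4 controls, and the differences of SHP2 miR1 from the controls of its own set were alike in both. They were -1.91 in set A and -1.89 in set B for CPS1, -1.27 and -1.22 for TUSC3, and -1.25 and -1.24 for PRKAA2. ARSJ stood at -0.24 and -0.16, and SLC39A8 at -0.65 and -0.83. GLRX stood at -0.67 and -0.83, and SLC18B1 at -1.18 and -1.16.

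**Figure D1:**
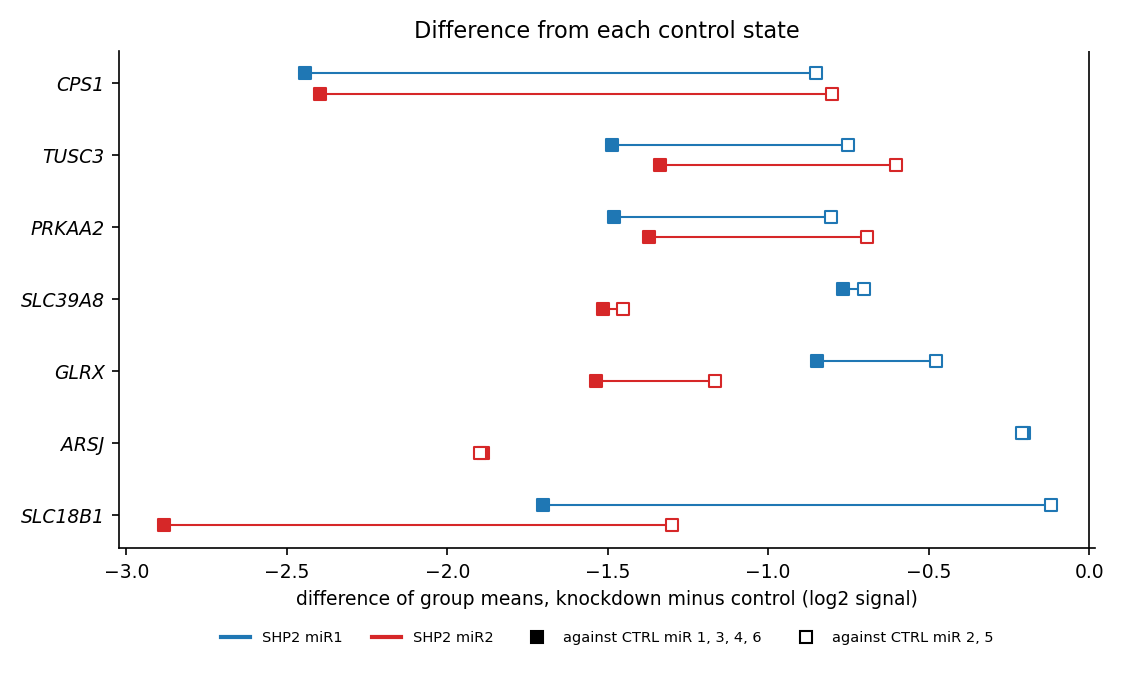
Difference of group means on the log2 scale (x axis), knockdown minus control, for each gene (y axis), by hairpin (colour) and control state (marker shape). Differences from control tumours 2 and 5 reach -0.85 for CPS1 with SHP2 miR1 but only -0.12 for SLC18B1 and -0.21 for ARSJ, whereas with SHP2 miR2 they run from -0.60 for TUSC3 to -1.90 for ARSJ.

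The contrast between the hairpins was not the one that chose the genes, and it was tested with limma across all 18377 genes. It uses the same knockdown tumours, however, and a deep fall with SHP2 miR2 alone could bring a gene in, so the choice favours genes low with SHP2 miR2 and nothing is read from their number. ARSJ, SLC18B1, SLC39A8 and GLRX were lower with SHP2 miR2 than with SHP2 miR1. These 4 of 7 genes passed an adjusted p of 0.05, against 22.5% of all genes, or 14.3% counting those higher with SHP2 miR1. ARSJ signal was higher with SHP2 miR1 by 1.69 ± 0.098 (SE; 95% interval 1.48 to 1.89; limma adjusted p = 8.09e-10), a 3.22-fold difference and the gene of rank 7 by p-value. SLC18B1 was higher by 1.18 ± 0.31 (SE; 0.53 to 1.83; limma adjusted p = 0.0121), which is 2.27-fold. For SLC39A8 the difference was 0.75 ± 0.13 (SE; 0.48 to 1.02; limma adjusted p = 0.000725), or 1.68-fold. For GLRX it was 0.69 ± 0.16 (SE; 0.35 to 1.03; limma adjusted p = 0.00656), or 1.61-fold. In each of these 4 genes all 7 SHP2 miR1 tumours were above all 3 SHP2 miR2 tumours, an order found for 13.2% of all genes, and the exact two-sided permutation p was 0.00833, the smallest that 7 against 3 tumours allow.

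CPS1, TUSC3 and PRKAA2 did not pass. The difference was -0.050 ± 0.32 (SE; 95% interval -0.71 to 0.61; limma adjusted p = 0.919) for CPS1. It was -0.15 ± 0.17 (SE; -0.51 to 0.21; limma adjusted p = 0.527) for TUSC3, and -0.11 ± 0.18 (SE; -0.49 to 0.27; limma adjusted p = 0.663) for PRKAA2. These intervals leave room for differences between the hairpins up to their bounds. The fit pools the spread within the 3 groups, and its control group holds both IRS4 states. For CPS1 the SD was 0.83 over the 6 controls, against 0.24 with SHP2 miR1 and 0.18 with SHP2 miR2. For SLC18B1 it was 0.83, against 0.21 and 0.081. For genes divided by IRS4 state, the SE between hairpins thus includes the difference between control states. Residual PTPN11 differed too, by 0.46 ± 0.12 (SE; limma adjusted p = 0.0115), with SHP2 miR2 lower.

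**Figure D2:**
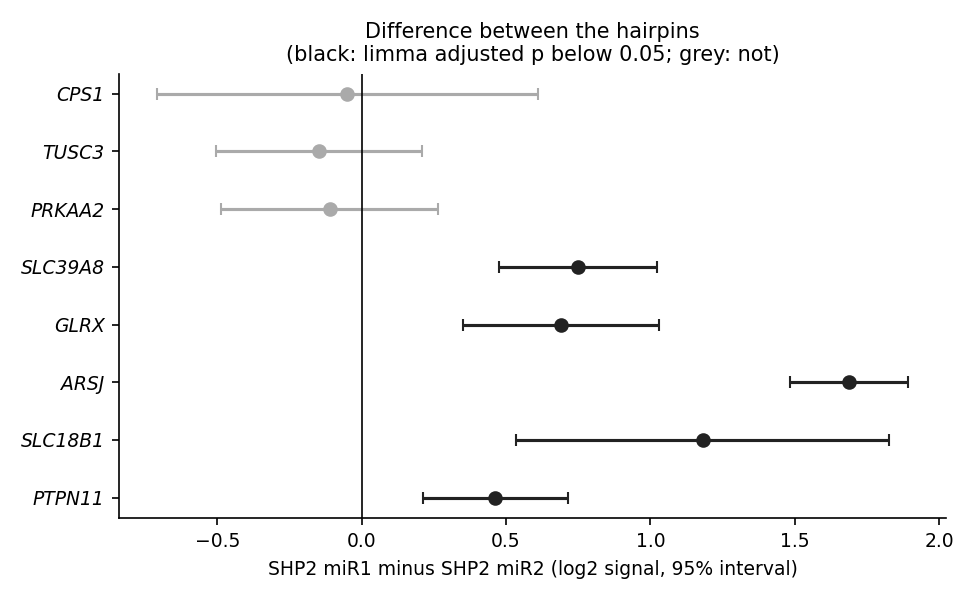
SHP2 miR1 minus SHP2 miR2 in log2 signal (x axis) for the 7 genes and PTPN11 (y axis), with points for the limma estimate and bars for its 95% interval. The intervals of ARSJ, SLC18B1, SLC39A8, GLRX and PTPN11 lie above 0, and those of CPS1, TUSC3 and PRKAA2 span it.

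Other properties of the SHP2 miR2 tumours moved with this contrast, and their part in it was not tested except where a value is given. All 3 SHP2 miR2 arrays belonged to set B, and within that set the differences between 3 and 3 tumours were 1.71 for ARSJ, 1.25 for SLC18B1, 0.80 for SLC39A8 and 0.50 for GLRX. Each had an exact permutation p of 0.1, the smallest possible. The SHP2 miR2 arrays were also narrower, with an SD over probe sets of 1.89 to 1.98 against 1.99 to 2.07 with SHP2 miR1. The mean of 12 of 12 fibroblast markers was 5.23 to 5.38 with SHP2 miR2 and 5.0 to 5.23 with SHP2 miR1, 5.08 and 5.19 in the low-IRS4 controls, and 4.78 to 4.94 in the high-IRS4 controls. The mean of 12 of 12 macrophage markers was 4.54 to 4.89 with SHP2 miR2 and 4.30 to 4.59 with SHP2 miR1, and that of 10 of 10 endothelial markers was 4.46 to 4.75 and 4.35 to 4.57. The array was designed for human transcripts, and how much of this signal came from mouse RNA was not tested. Hepatocyte markers averaged 4.10 to 4.31 with SHP2 miR2 and 3.88 to 4.10 with SHP2 miR1, and enterocyte markers 4.54 to 4.67 and 4.25 to 4.55. The lower quartile of the arrays was 3.87 to 4.04 with SHP2 miR2 and 3.72 to 3.89 with SHP2 miR1. Whether the host lists followed host cells or low signals in general was not tested. A host marker score from the fibroblast, macrophage and endothelial lists was then used as a covariate. With it the difference was 1.70 for ARSJ (limma adjusted p = 8.65e-08) and 0.75 for SLC39A8 (adjusted p = 0.0109). It was 0.30 for GLRX (adjusted p = 0.337) and 0.57 for SLC18B1 (adjusted p = 0.437), which no longer passed. The fibroblast list did not overlap between the hairpins, so this fit cannot fully separate the host score from the hairpin. The same covariate moved the differences of CPS1 to -0.58 (adjusted p = 0.477), of TUSC3 to -0.54 (adjusted p = 0.0695) and of PRKAA2 to -0.39 (adjusted p = 0.361), with SHP2 miR1 lower. GLRX also missed the threshold without SHP2 miR2 tumour 3 (0.59, adjusted p = 0.0659), and SLC18B1 without SHP2 miR2 tumour 1 (1.16, adjusted p = 0.0579) or tumour 3 (1.23, adjusted p = 0.0525).

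The stretches of genome just upstream of ARSJ, SLC18B1, SLC39A8 and GLRX are shown because these are the genes whose signal differed between hairpins. Each is the 250 bases before a RefSeq transcript start (GRCh38.p14), read 5′ to 3′ on the gene's own strand, which is minus for all 4, with motif matches in capitals.
ARSJ, chr4:113979648-113979897: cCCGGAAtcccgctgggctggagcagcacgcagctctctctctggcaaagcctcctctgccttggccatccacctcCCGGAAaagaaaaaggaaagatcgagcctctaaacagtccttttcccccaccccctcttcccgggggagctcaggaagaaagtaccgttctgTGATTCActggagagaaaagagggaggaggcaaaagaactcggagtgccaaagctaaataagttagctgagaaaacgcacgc
SLC18B1, chr6:132798638-132798887: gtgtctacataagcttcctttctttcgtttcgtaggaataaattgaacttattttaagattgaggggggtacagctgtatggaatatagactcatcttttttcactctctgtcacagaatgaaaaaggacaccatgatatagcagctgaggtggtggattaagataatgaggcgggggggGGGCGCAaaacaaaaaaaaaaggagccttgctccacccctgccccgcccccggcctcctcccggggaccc
SLC39A8, chr4:102345483-102345732: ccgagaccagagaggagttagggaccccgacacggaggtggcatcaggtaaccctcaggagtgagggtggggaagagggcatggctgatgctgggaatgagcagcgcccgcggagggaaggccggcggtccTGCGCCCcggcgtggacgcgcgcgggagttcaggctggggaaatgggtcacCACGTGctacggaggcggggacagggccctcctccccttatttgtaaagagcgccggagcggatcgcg
GLRX, chr5:95822727-95822976: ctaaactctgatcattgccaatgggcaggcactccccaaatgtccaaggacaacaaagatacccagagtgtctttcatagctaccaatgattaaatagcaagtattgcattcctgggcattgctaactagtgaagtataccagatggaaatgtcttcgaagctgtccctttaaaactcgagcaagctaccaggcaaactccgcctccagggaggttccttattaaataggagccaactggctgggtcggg
The letters searched on both strands were TGANTCA (AP-1), CCGGAA (ETS), CACGTG (E-box), TGCACNC and TGCGCNC (metal response element) and TGACNNNGC (antioxidant response element). The ARSJ window holds CCGGAA 249 to 244 and 174 to 169 bases before the start and TGATTCA 82 to 76 bases before it. The SLC18B1 window holds GGGCGCA, the reverse complement of a metal response element, 70 to 64 bases before the start. SLC39A8, a zinc carrier, has TGCGCCC 119 to 113 bases and CACGTG 68 to 63 bases before the farthest upstream of its 3 starts, and CCGGAA 58 to 53 bases before another start, in a window not shown. No match lies in the GLRX window, and no 2 of the matches shown overlap. Of 35116 promoter windows of the same length, 6.57% hold the AP-1 letters, 14.5% the ETS letters, 6.34% the E-box, 24.8% a metal response element and 10.9% the antioxidant response element. Among the other genes matched, CPS1 has 3 starts, with CACGTG 46 to 41 bases before 1 of them, and PRKAA2 has 1 start and no match. In all, 6 of the 7 genes were matched in the RefSeq promoter table.

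In GRCh38.p14, CPS1 spans chr2:210477685-210679107, PRKAA2 chr1:56645314-56715335 and TUSC3 chr8:15417188-15852091. SLC39A8 spans chr4:102251041-102345482 and ARSJ chr4:113900284-113979647. GLRX spans chr5:95813849-95822726 and SLC18B1 chr6:132769370-132798637. Each gene was read by 1 probe set that spans its transcript, so no exon or isoform is resolved.

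The genes whose profiles over the 16 tumours lay closest were found from the mean absolute difference of log2 values, each gene centred on its own mean. TUSC3 and PRKAA2 were near neighbours, at 0.17, which was rank 2 for TUSC3 and rank 1 for PRKAA2 among all genes. DSE, an epimerase that makes dermatan sulfate, stood at 0.16 from TUSC3 and 0.22 from PRKAA2. HERC5 was the next nearest to TUSC3 (0.19), and PHF6 stood at 0.18 from PRKAA2. CPS1 was closest to HEY1 (0.20), a transcriptional repressor downstream of Notch, then to MAP7D3 (0.22) and NECTIN3 (0.25). GLRX was closest to RPS24 (0.14), a ribosomal protein, then to GMNN and PHGDH (0.16 each). SLC39A8 lay nearest to KDELR3 and TSPAN6 (0.19 each) and RPS24 (0.20), with GLRX at rank 6 (0.22). ARSJ was closest to ASPH (0.17), NETO2 (0.18) and CADPS2 (0.19), and SLC18B1 to MID1 (0.19), ADAT2 (0.20) and CLGN (0.22). The means of MID1, ADAT2 and CLGN were higher with SHP2 miR1 (6.27, 6.08 and 4.15) than in the low-IRS4 controls (6.01, 5.87 and 4.03). These distances describe 16 tumours that share groups and array sets, and carry no test.

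Of 132 other genes of the 7 families and pathways, 26 passed the limma test for both hairpins against all controls, 4 higher and 22 lower, where 18.6% of all genes passed (5.52% higher and 13.1% lower). With each array centred on its median, the split over all genes moved from 1015 higher and 2399 lower to 1515 and 1999. Against control tumours 2 and 5 alone, 3 of the 132 passed and 12 had an unadjusted limma p below 0.05. That fit has only 2 control tumours, so a gene can miss the threshold there without a smaller difference. With the host marker score as a covariate, 4 passed and 23 had an unadjusted limma p below 0.05. The host lists differed between the groups too, so that fit cannot fully separate the score from the group. The counts over all controls thus moved with the control tumours used and with the host marker score.

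In the urea cycle and ammonia list, 4 of 11 genes fell and none rose, with a median change of -0.24 against 0.030 over all genes. The genes that fell were SLC25A15, the mitochondrial ornithine carrier, by 0.50 (limma adjusted p = 0.0155), ARG2, a mitochondrial arginase, by 0.42 (adjusted p = 0.00152), ASS1, argininosuccinate synthase, by 0.37 (adjusted p = 0.0102), and GLUL, glutamine synthetase, by 0.27 (adjusted p = 0.0496). None of the 11 passed against control tumours 2 and 5 alone. There ASS1 was at -0.49 (adjusted p = 0.105) and ARG2 at -0.46 (adjusted p = 0.139), differences no smaller than those over all controls. SLC25A15 was at -0.027 and GLUL at -0.13. In the oligosaccharyltransferase and magnesium list, 3 of 14 fell. These were STT3A, a catalytic subunit, by 0.51 (adjusted p = 0.00176), CNNM2, a magnesium transport protein, by 0.41 (adjusted p = 0.0124), and the subunit OSTC by 0.30 (adjusted p = 0.0266). MAGT1, the paralog of TUSC3, was at -0.12 (adjusted p = 0.445).

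Among 20 AMPK subunits, upstream kinases and targets, 2 fell: PRKAB2, a regulatory subunit, by 0.26 (limma adjusted p = 0.0252), and PFKFB3, a glycolytic regulator, by 0.44 (adjusted p = 0.0291). PRKAA1, the other catalytic subunit, was at -0.096 (adjusted p = 0.557). In the glutaredoxin, thioredoxin and glutathione list, 6 of 25 fell, among them SLC7A11, which imports cystine, by 0.81 (adjusted p = 0.0103), the peroxidase PRDX3 by 0.44 (adjusted p = 0.0109) and GPX4, which reduces lipid peroxides, by 0.30 (adjusted p = 0.00966). GLRX5, a mitochondrial glutaredoxin, fell by 0.42 (adjusted p = 0.00879), but its second probe set gave 0.055. GLRX2 was at -0.27 (adjusted p = 0.0770). No gene of either list passed against control tumours 2 and 5 alone. There PRKAB2 was at -0.33 (adjusted p = 0.403) and PFKFB3 at -0.19. GLRX5 was at -0.25, GPX4 at -0.16, PRDX3 at -0.082 and SLC7A11 at -0.0097.

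Of 29 zinc transporters and metallothioneins, 1 rose, SLC30A2, a zinc exporter into vesicles, by 0.43 (limma adjusted p = 0.00900), and none fell. SLC30A2 was at 0.30 (adjusted p = 0.767) against control tumours 2 and 5 alone. Its group means of 4.23 to 4.89 were below the array medians. SLC39A14, the closest relative of SLC39A8, was at -0.32 (adjusted p = 0.0617), and at 0.079 against control tumours 2 and 5 alone. Of 17 sulfatases and their modifying factors, 2 rose and 3 fell. STS, steroid sulfatase, rose by 1.11 (adjusted p = 0.000150), by 2.1 with SHP2 miR2 (adjusted p = 6.74e-07) and with a value of 0.11 for SHP2 miR1. It thus went up in the tumours in which ARSJ was lowest. ARSD rose by 0.37 (adjusted p = 0.00646), SULF1 fell by 0.84 (adjusted p = 0.00646) and IDS by 0.45 (adjusted p = 0.00437). SULF1 was at -0.015 against control tumours 2 and 5 alone (adjusted p = 0.997). There IDS was at -0.43 (adjusted p = 0.351) and ARSD at 0.19 (adjusted p = 0.816). ARSI, a relative of ARSJ, was at 0.19 (adjusted p = 0.319).

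Of 16 genes of SLC18 transporters and polyamine metabolism, 4 fell and 1 rose. ODC1, which makes putrescine, fell by 0.88 (limma adjusted p = 0.0176), AMD1 by 0.52 (adjusted p = 0.00220) and SRM, spermidine synthase, by 0.48 (adjusted p = 0.00592). SAT1, which acetylates spermidine and spermine for breakdown, rose by 0.54 (adjusted p = 0.000167). ODC1 was at 0.13 against control tumours 2 and 5 alone, and no gene of this list passed there. In the same comparison SAT1 was at 0.485 (adjusted p = 0.0769), AMD1 at -0.29 and SRM at -0.12. The vesicular monoamine transporters SLC18A1 and SLC18A2 were at 0.088 (adjusted p = 0.447) and 0.018 (adjusted p = 0.900). Against control tumours 2 and 5 alone the 3 genes that passed were STS at 0.94, SLC30A4 at 0.86 and SULF2 at -0.86, the last 2 named after their values were seen.

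With SHP2 miR1 alone, 1 gene of the 132 rose and 3 fell, where 1.38% of all genes rose and 3.38% fell. The zinc, urea cycle, AMPK and glutaredoxin lists had 0 genes past the limma threshold, with 4, 2, 4 and 4 genes at an unadjusted p below 0.05. With SHP2 miR2 alone, 11 of 25 genes of the glutaredoxin list and 6 of 11 of the urea cycle list fell, where 18.2% of all genes fell and 11.8% rose. In the zinc list 5 of 29 fell and 6 rose, and in the sulfatase list 6 of 17 fell and 3 rose. The oligosaccharyltransferase list had 3 of 14 lower, the AMPK list 5 of 20 lower and 1 higher, and the SLC18 list 5 of 16 lower and 2 higher. In the urea cycle list 1 gene rose, and in the glutaredoxin list none did. Between the hairpins, 10 of 25 genes of the glutaredoxin list were lower with SHP2 miR2, as GLRX was, and none was higher, where 14.3% and 8.22% of all genes were. These included SLC7A11, by 1.36 (limma adjusted p = 0.00162), GLRX5 by 0.63 (adjusted p = 0.00282) and GPX4 by 0.47 (adjusted p = 0.00224). STS differed the other way, at -1.99 for SHP2 miR1 minus SHP2 miR2 (adjusted p = 1.09e-06). In the urea cycle list 5 of 11 were lower with SHP2 miR2 and 1 higher, although CPS1 did not pass. The AMPK list had 4 of 20 lower and 1 higher, although PRKAA2 did not pass. Lower and higher were 3 and 2 of 17 sulfatases, 3 and 4 of 29 zinc genes, and 2 and 1 of 16 SLC18 list genes. In the oligosaccharyltransferase list 1 of 14 was lower.

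**Figure D3:**
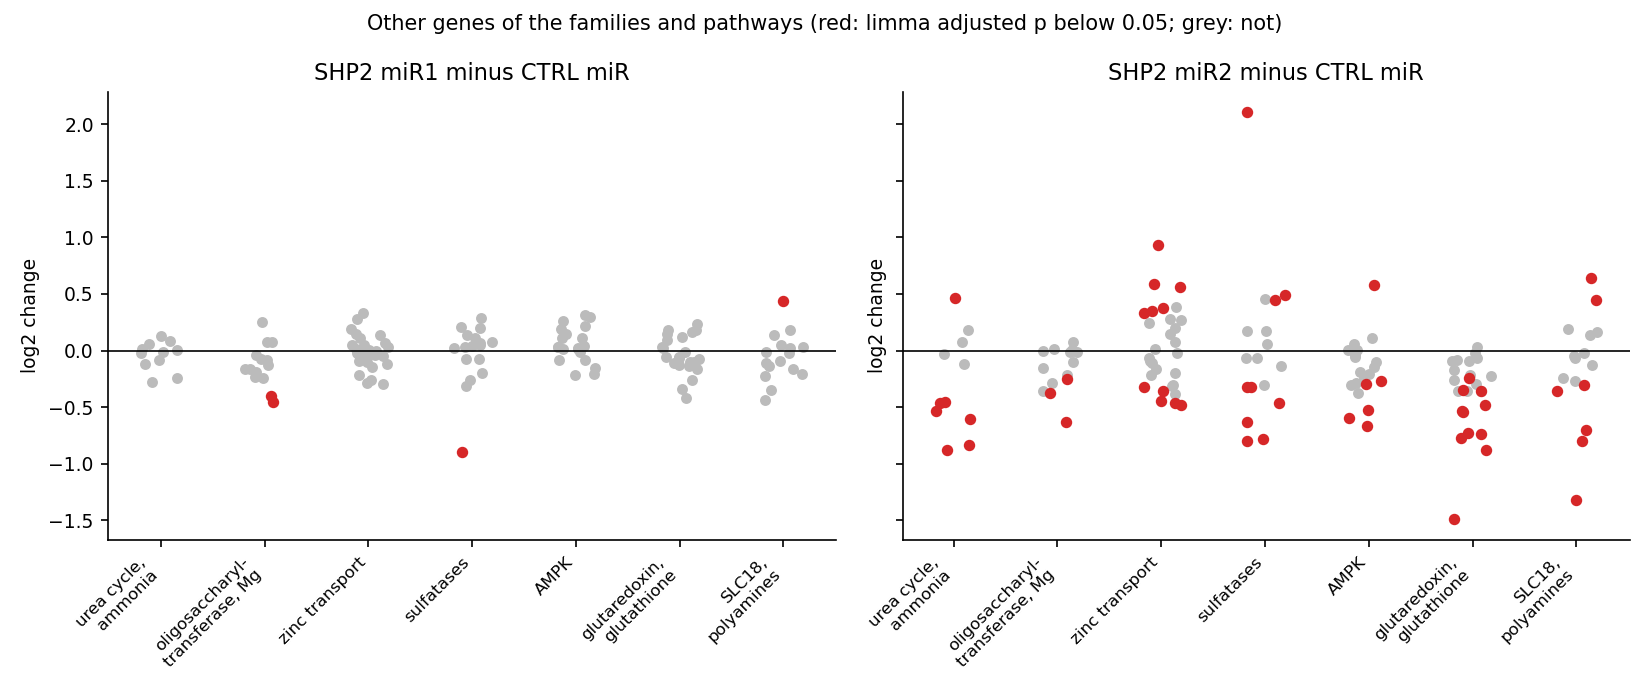
Log2 change (y axis) of each other gene of the 7 families and pathways (x axis), in 1 panel for SHP2 miR1 minus CTRL miR and 1 for SHP2 miR2 minus CTRL miR, with 1 point per gene, red where the limma adjusted p was below 0.05. In the SHP2 miR1 panel 4 of 132 genes are red, and in the SHP2 miR2 panel STS stands at 2.1 while 11 of 25 genes of the glutaredoxin list are red below 0.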

How the data were processed

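The authors deposited 1 table of log2 signal per transcript cluster (28869 probe sets) for the 16 arrays, made with R 2.10 and oligo 1.8 per the submitters' processing notes. No source used here gives the background and normalization steps. Of the probe sets, 19310 carried 1 gene symbol in the platform annotation, 1752 several and 7807 none; only those with 1 were used, the highest mean for the 685 genes with more than 1, giving 18377 genes. Each of the 7 genes had 1 probe set. No filter on low values was applied.

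Limma 3.58.1 in R 4.3.3 was fitted over the 3 groups, with Benjamini-Hochberg adjustment over all genes and a threshold of 0.05, and was tested on simulated data. The mean of both hairpins weighted them equally. The control states were split at the widest gap of IRS4, and the array sets at that of 5 noncoding RNAs. Family lists left out the 7 genes; the text names up to 4 called genes per list by adjusted p and each gene's paralogs. The 3 closest profiles of each gene are named. Promoters came from RefSeq. The genes and lists were chosen with earlier results of these data known. The number of arrays limits the precision. Alternatives covered normalization, probe set, variance prior, array weights, blocks, control state, host markers and each tumour left out. Some family genes are not reported here.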

Additional observations from a re-analysis of the deposited data

Results flagged for a closer look

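ARSJ, SLC18B1, SLC39A8 and GLRX differed between the hairpins by the limma test, as 22.5% of all genes did. The choice of genes favours those low with SHP2 miR2, so nothing is read from their number. SHP2 miR1 minus SHP2 miR2 was 1.69 for ARSJ, 1.18 for SLC18B1, 0.75 for SLC39A8 and 0.69 for GLRX on the log2 scale. In each, 7 of 7 SHP2 miR1 tumours were above 3 of 3 SHP2 miR2 tumours, an order found for 13.2% of all genes. No CTRL miR or SHP2 miR1 tumour stood outside its group in the 16 groups of 4 to 10 values examined for outlying samples. Groups of fewer than 4 values were left out, so no SHP2 miR2 tumour was examined. The controls were examined together, although they fell into a high-IRS4 and a low-IRS4 state.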

How the results depend on the processing

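The difference between the hairpins kept its direction and its side of the threshold for SLC39A8 (0.60 to 0.85) and ARSJ (1.65 to 1.83) under all 12 alternatives and with each of the 16 tumours left out. Not all of these could move the difference. Leaving out controls changes only the spread and the adjustment, and with 1 probe set per gene the second probe set run used the same values. For GLRX the difference was 0.30 and for SLC18B1 0.57 with the host marker score, neither past the threshold. With a tumour left out the differences were 0.59 to 0.81 and 1.14 to 1.23. CPS1 changed sign with array set as a block (0.033) and with quantile normalization (0.14), was -0.58 with the host score, and spanned -0.15 to 0.017 with a tumour left out; TUSC3 was -0.54 and PRKAA2 -0.39 with the host score, and PRKAA2 spanned -0.24 to 0.0035. A filter on the genes of lowest mean signal removed CPS1 and GLRX and was not run for them. Weighting hairpins by tumours moved the averaged difference from control tumours 1, 3, 4 and 6 to -0.71 for ARSJ and -2.06 for SLC18B1, and that from control tumours 2 and 5 to -0.72 and -0.47. Against control tumours 2 and 5, TUSC3 was -0.84 to -0.52 and GLRX -1.04 to -0.60 with a tumour left out.

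Counts over all genes also moved. For both hairpins against the controls, 3414 genes became 7047 with array weights, 6531 against control tumours 1, 3, 4 and 6 alone, 138 against control tumours 2 and 5 alone, 278 with the host score and 2064 with hairpins weighted by tumours. Leaving out a tumour gave 2086 (control 3) to 5706 (control 5), with 2155 without control 1, 2188 without control 6 and 2214 without SHP2 miR2 tumour 3. Between the hairpins, 4136 became 2523 with array set as a block, 7180 with array weights and 881 with the host score, and 1310 to 5923 with a tumour left out, with 1659 without SHP2 miR2 tumour 1 and 1310 without tumour 3. Quantile normalization moved the split from 2626 higher and 1510 lower to 1528 and 1373. Whether replicate numbers pair the tumours was not settled: 5 of 12 pairs with a shared number had correlated deviations above 0.1 (range -0.42 to 0.37). Those 5 each joined a control and an SHP2 miR1 tumour of the same array set, and every other pair joined different sets. A shared number and a shared array set therefore cannot be told apart. With the replicate block the count between hairpins was 6773 and the zinc list had 3 calls; no call of the 7 genes changed.

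In the family lists, calls for both hairpins became, with array weights, 7 (urea cycle), 5 (oligosaccharyltransferase), 12 (zinc), 6 (AMPK) and 12 (glutaredoxin). Against control tumours 1, 3, 4 and 6 alone they were 7, 5, 9, 5 and 10. Against control tumours 2 and 5 alone they were 0 for urea cycle, oligosaccharyltransferase, AMPK, glutaredoxin and SLC18, and 2 for sulfatases. With the host score they were 1, 0, 0 and 0 for urea cycle, oligosaccharyltransferase, AMPK and glutaredoxin, and 1 each for sulfatases and SLC18. With hairpins weighted by tumours they were 2 (urea cycle), 1 (AMPK), 2 (glutaredoxin) and 3 (SLC18). Array set as a block gave 4 for AMPK and 3 for zinc. Zinc had 2 calls with second probe sets or quantile normalization and 3 with a trended robust prior. Leaving out a tumour gave 2 to 7 (urea cycle), 2 to 5 (oligosaccharyltransferase), 1 to 7 (zinc), 0 to 5 (AMPK) and 3 to 5 (SLC18). Signs turned for ARSI with the host score (-0.14), GLRX5 with its second probe set (0.055), and MAGT1 (0.15), ODC1 (0.13) and SLC39A14 (0.079) against control tumours 2 and 5 alone. SLC18A2 turned with array set as a block (-0.014), against control tumours 2 and 5 alone (-0.078), with the host score (-0.20), with hairpins weighted by tumours (-0.042) and with quantile normalization (-0.055), and spanned -0.019 to 0.078 with a tumour left out. Where no value shows the cause of a change, the cause was not tested. SHP2 miR2 has 3 tumours, and low signals cannot be told from background here.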
